A study of Homo sapiens with 6 samples.

Results

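The 9 genes described here make the class I antigen presentation machinery: the heavy chains HLA-B, HLA-C, HLA-E and HLA-F, their common light chain B2M, the peptide transporter subunits TAP1 and TAP2, the loading factor TAPBP, and the transcriptional regulator NLRC5. They were taken by symbol, by matching the Ensembl gene identifiers of the deposited table to GENCODE 29. No expression value entered this rule, but the genes were chosen with earlier results of these data known. All 9 were found among the 58735 genes of the table, and all 9 were among the 15638 genes tested, which had a mean level of at least 1 FPKM over the 3 libraries of at least 1 cell line. FPKM is the number of fragments scaled to exon length and library size. NLRC5 passed through H660 alone, since its mean in C4-2B MDVR was under 1 FPKM.

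Class I molecules carry peptides cut from proteins inside the cell to its surface, where CD8+ T cells read them. Proteasomes cut the peptides, the TAP1 and TAP2 transporter brings them into the endoplasmic reticulum, and tapasin, the product of TAPBP, helps to load them onto a heavy chain bound to β2-microglobulin, the product of B2M. HLA-B and HLA-C are classical heavy chains, while HLA-E and HLA-F are nonclassical ones, and HLA-E is a ligand of NKG2A receptors on natural killer cells. Interferons and NF-κB act on the promoters of many of these genes, and NLRC5 is a transactivator that works with the RFX and NF-Y factors. Tumours often carry low levels of this machinery, neuroendocrine tumours among them.

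Expression was measured by messenger RNA sequencing, with paired reads of 150 bases, in 2 human prostate cancer lines. The H660 line (NCI-H660) is a neuroendocrine prostate cancer model, and C4-2B MDVR is an enzalutamide-resistant derivative of C4-2B that expresses the androgen receptor. For H660 there were 2 libraries with PLXND1 siRNAs, siRNA 1 and siRNA 2, and 1 with control siRNA, and C4-2B MDVR had the same 3. PLXND1 encodes Plexin D1, a semaphorin receptor. No siRNA and no control was repeated within a line, and separate cultures are not mentioned, so p-values measure only a spread among these 6 libraries. For knockdown within a line, and for its difference between lines, that spread is the one between siRNA 1 and siRNA 2. Technical variation and differences between the 2 siRNAs cannot be told apart in it.

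Recovered fragment totals ran between 17655802 and 24105369 per library. The 5 neuroendocrine markers summed to 799 to 848 FPKM in H660 and to 0.291 to 0.700 FPKM in C4-2B MDVR, and the 5 luminal and androgen receptor markers to 0.252 to 0.390 FPKM in H660 and to 543 to 1079 FPKM in C4-2B MDVR, as the line labels say. PLXND1 stood at 1.57 and 3.10 FPKM with siRNA 1 and siRNA 2 in C4-2B MDVR, against 7.40 FPKM with control siRNA. In H660 it stood at 7.62 and 7.54 FPKM with the siRNAs, against 9.13 FPKM, so the mean remaining level was 0.315 of control in C4-2B MDVR and 0.830 in H660. The target's own difference did not pass the test in either line (limma, log2 difference -1.37 ± 0.31, adjusted p = 0.711 in C4-2B MDVR, and -0.24 ± 0.31, adjusted p = 1 in H660, with SE here and after each later log2 difference). The knockdown comparison in H660 is thus one at a small loss of the target.

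Except for B2M and NLRC5, the genes lie on the short arm of chromosome 6, in the major histocompatibility complex (GRCh38, GENCODE 29 annotation). HLA-F spans positions 29722775 to 29738528 and HLA-E 30489467 to 30494205 on the plus strand. HLA-C spans 31268749 to 31272130, HLA-B 31269491 to 31357188, TAP2 32821833 to 32838780, TAP1 32845209 to 32853978 and TAPBP 33299694 to 33314387 on the minus strand. B2M lies on chromosome 15, 44711487 to 44718877, and NLRC5 on chromosome 16, 56989485 to 57083531, both on the plus strand. Some of these annotated genes share exon bases with neighbours. HLA-B and HLA-C share 35 bases, TAP2 shares 32.3% of its exon length with AL669918.1 on the same strand, and antisense annotations cover 17.8% of HLA-B, 9.49% of TAP1 and up to 16.1% of HLA-F for a single neighbour. Use of strand in the counting is not stated in the sources used here, and the heavy chain genes resemble each other, so the values of single heavy chains and of TAP2 carry the uncertainty of how shared reads were assigned.

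Upstream sequence is shown for 4 genes because the line comparison separates genes that are close in sequence (HLA-B and HLA-C on the one hand, HLA-F on the other) and puts B2M, which lies on another chromosome, with HLA-B and HLA-C. Each line gives the 250 bases before the RefSeq gene start (GRCh38.p14), 5′ to 3′ on the strand of the gene. The windows are chr6:31357180-31357429 on the minus strand for HLA-B, chr6:31272093-31272342 on the minus strand for HLA-C, chr6:29723184-29723433 on the plus strand for HLA-F and chr15:44711267-44711516 on the plus strand for B2M. Capitals mark matches on either strand to fixed letters. These were GAAA and GAAA with any 2 bases between, a form of the interferon-stimulated response element (ISRE), and CCAAT, letters found in the Y box. The last were GGG and CCC with any 4 or 5 bases between, a form of the kappa B site.
HLA-B: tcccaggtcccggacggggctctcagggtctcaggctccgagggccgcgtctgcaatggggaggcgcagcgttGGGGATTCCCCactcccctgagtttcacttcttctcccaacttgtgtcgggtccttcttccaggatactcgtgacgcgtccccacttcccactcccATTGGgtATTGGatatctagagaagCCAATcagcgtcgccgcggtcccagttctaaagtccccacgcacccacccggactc
HLA-C: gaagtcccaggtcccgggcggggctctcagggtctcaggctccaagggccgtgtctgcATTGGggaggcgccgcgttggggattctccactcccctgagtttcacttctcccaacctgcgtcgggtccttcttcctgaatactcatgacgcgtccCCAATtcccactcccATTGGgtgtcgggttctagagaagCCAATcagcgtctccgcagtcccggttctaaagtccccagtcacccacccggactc
HLA-F: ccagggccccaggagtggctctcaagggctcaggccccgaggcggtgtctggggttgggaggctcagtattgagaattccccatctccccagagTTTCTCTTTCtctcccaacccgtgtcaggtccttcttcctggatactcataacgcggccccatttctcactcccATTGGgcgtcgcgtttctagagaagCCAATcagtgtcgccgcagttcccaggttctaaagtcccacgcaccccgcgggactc
B2M: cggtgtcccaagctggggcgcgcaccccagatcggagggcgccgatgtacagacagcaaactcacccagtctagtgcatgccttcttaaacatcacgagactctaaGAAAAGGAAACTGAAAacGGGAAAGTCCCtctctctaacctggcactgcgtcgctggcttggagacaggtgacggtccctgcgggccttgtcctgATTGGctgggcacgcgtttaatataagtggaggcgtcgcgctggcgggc

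In these windows HLA-B and HLA-C were 89.0% identical, HLA-B and HLA-F 79.8%, and HLA-C and HLA-F 78.2%. The 3 heavy chain genes each held a CCAAT match at position -56 or -57 from the gene start. Each also held the inverted form, ATTGG, just upstream, starting at -81 in HLA-B, -80 in HLA-C and -82 in HLA-F. The letters alone do not tell which match is the Y box. B2M held 2 overlapping ISRE matches, from -144 to -129, and a kappa B match from -126 to -116. HLA-B held overlapping kappa B matches from -177 to -167, and no match to these letters was found in the HLA-C or HLA-F window. Between the same flanking bases, however, HLA-C reads ggggattctcc where HLA-B reads ggggattcccc. RefSeq windows were matched for 7 of the 9 genes, with HLA-E and NLRC5 not among them. The ISRE letters searched were found in 5 of the 7 (HLA-F, B2M, TAP1, TAP2 and TAPBP), against 3.02% of the 35116 windows of that length. At the place of the HLA-F match, HLA-B and HLA-C read gagtttcacttct, which these letters do not cover. CCAAT was found in 5 of the 7, against 32.0%, kappa B in 3 (HLA-B, B2M and TAP1), against 24.4%, and TTC and GAA with any 3 bases between, the gamma-activated site, in 0, against 6.57%. Matches of different kinds did not overlap in the 7 windows. A match describes these letters alone, and other forms of the ISRE and of the kappa B site were not searched.

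The line comparison asks how far class I presentation differs between the neuroendocrine and the androgen receptor line. The classical heavy chains HLA-B and HLA-C, the light chain, the peptide transporter, TAPBP and NLRC5 were higher in H660, while the nonclassical heavy chains HLA-E and HLA-F were not called. In mean FPKM over the 3 libraries of each line, H660 stood 9.57-fold above C4-2B MDVR for HLA-B, 6.88-fold for B2M, 5.51-fold for NLRC5, 4.47-fold for HLA-C, 4.02-fold for TAPBP, 2.59-fold for TAP1 and 2.47-fold for TAP2. A call needed a limma adjusted p under 0.05 and at least 2-fold, and 7 of 9 members (NLRC5, which entered the test through H660 alone, among them) were called higher and 0 lower, where 38.0% of all tested genes were called, 20.1% higher and 17.9% lower. The same 7 members had all 3 H660 libraries above all 3 C4-2B MDVR libraries, which held for 37.1% of tested genes. The median log2 difference over the 9 members was 1.43, which is the value of NLRC5 itself, and the median over all tested genes was 0.00. Because NLRC5 entered the test through H660 alone, where it is higher, this median and the counts that include NLRC5 are a description and support nothing further. In bulk cultures, more cells carrying a transcript and more transcript per cell cannot be told apart.

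**Figure D1:**
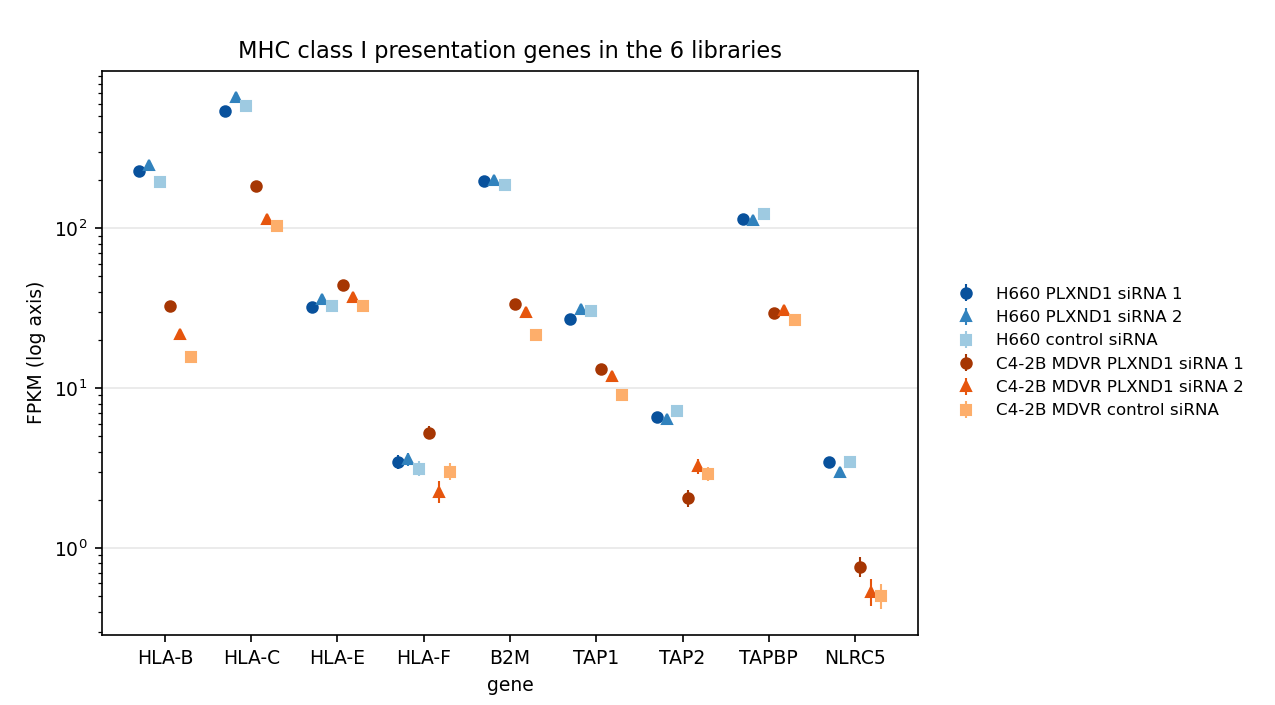
Level of each gene in each library, in FPKM on a log axis, with H660 in blue and C4-2B MDVR in orange; bars are exact Poisson intervals at 95% and cover counting error only. The blue and orange points are apart for 7 genes and meet for HLA-E and HLA-F.

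HLA-C, a classical heavy chain, had the highest FPKM of the 9 in every library. It stood at 543 and 664 FPKM with PLXND1 siRNA 1 and 2 and at 584 FPKM with control siRNA in H660, against 183, 115 and 103 FPKM in the same order in C4-2B MDVR. The lines did not overlap, and the difference was 2.19 ± 0.22 (limma, log2, adjusted p = 0.000266). In H660, 99.8% of tested genes lay below HLA-C in each library, and in C4-2B MDVR 97.7% to 98.8%.

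HLA-B, the other classical heavy chain here, had 228 and 249 FPKM with the siRNAs and 194 FPKM with control siRNA in H660, against 32.7, 21.8 and 15.6 FPKM in C4-2B MDVR. Every H660 library was far above every C4-2B MDVR library, and the limma difference of 3.26 ± 0.19 was the largest among the 9 genes (log2, adjusted p = 3.07e-05). Between the 2 controls the ratio was 12.4, with an exact binomial interval at 95% of 11.7 to 13.3 that covers counting error only. Between the siRNA 1 libraries it was 6.95 (6.64 to 7.29).

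B2M, whose product pairs with the class I heavy chains, had 197 and 201 FPKM with the siRNAs and 187 FPKM with control siRNA in H660, against 33.6, 30.0 and 21.3 FPKM in C4-2B MDVR. The ranges were wide apart and the H660 values close together (195 ± 6.95 FPKM, SD, n = 3), with a limma difference of 2.76 ± 0.14 (log2, adjusted p = 1.82e-05). Its control ratio was 8.78 (8.44 to 9.14).

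The nonclassical heavy chains did not show this difference in the test. HLA-E had 32.0 and 36.2 FPKM with the siRNAs and 32.8 FPKM with control siRNA in H660, against 44.1, 37.2 and 32.8 FPKM in C4-2B MDVR. The lines overlapped, the ratio of the controls was 0.999 (0.942 to 1.06), and the limma difference was -0.16 ± 0.13 (log2, adjusted p = 0.286). HLA-F had 3.45, 3.58 and 3.13 FPKM in H660, against 5.25, 2.25 and 3.0 FPKM in C4-2B MDVR. Its H660 values lay inside the range of the C4-2B MDVR values, with a limma difference of 0.02 ± 0.24 (log2, adjusted p = 0.958). Each sign turned under other scalings: HLA-E stood at 0.12 with mitochondrial genes left out and HLA-F at -0.13 after quantile normalization, so that no direction can be given for either.

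The heavy chains therefore stood in different proportions in the lines. Of the summed FPKM of the 4 heavy chain genes, HLA-B made 28.2%, 26.1% and 23.9% in H660 (siRNA 1, siRNA 2, control), against 12.4%, 12.4% and 10.1% in C4-2B MDVR. HLA-E made 3.97%, 3.80% and 4.02% in H660, against 16.7%, 21.1% and 21.3% in C4-2B MDVR. The share of HLA-C lay between 67.4% and 71.7% in H660 and between 65.3% and 69.0% in C4-2B MDVR, with overlap, and HLA-F made under 2% of the sum in every library. The sum itself was 806, 953 and 815 FPKM in H660, against 265, 176 and 154 FPKM in C4-2B MDVR. Set against B2M, the sum was 4.09, 4.74 and 4.35 times the B2M FPKM in H660, against 7.88, 5.86 and 7.23 times in C4-2B MDVR. This ratio was thus higher in every C4-2B MDVR library than in any H660 library. Its size depends on the exon length by which FPKM is divided, 6079 bases for B2M and 2507 for HLA-C. These shares and ratios were described and not tested.

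**Figure D2:**
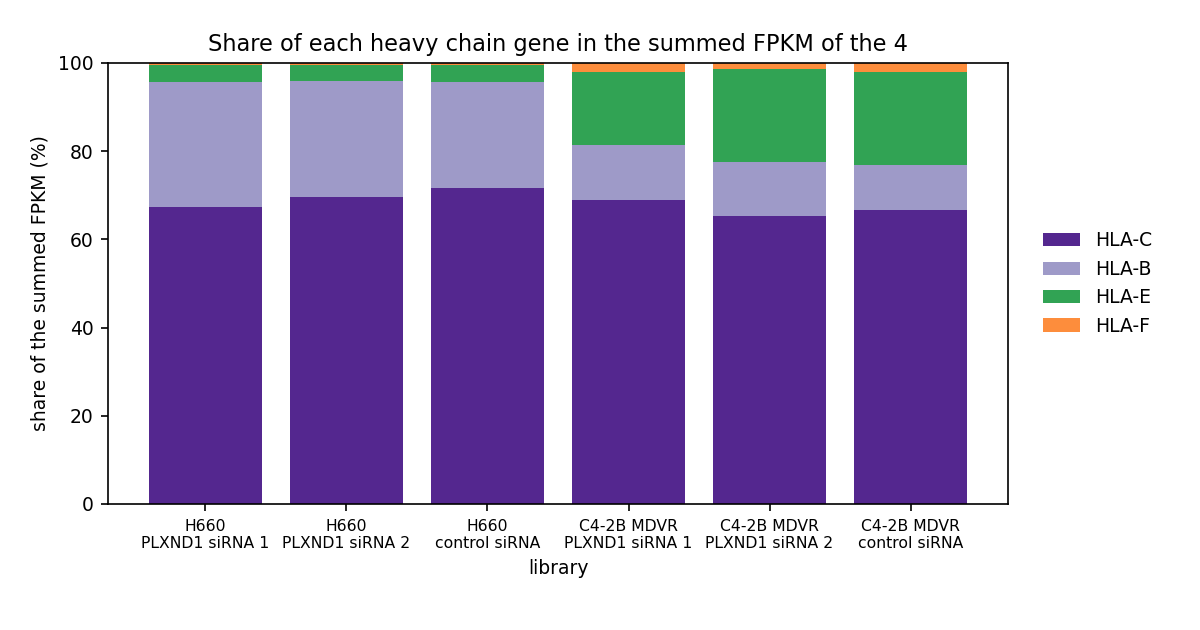
Share of HLA-C, HLA-B, HLA-E and HLA-F in their summed FPKM, in percent, with 1 bar per library and H660 on the left. HLA-C is the largest part in all 6 bars, HLA-B is the wider part beside it in H660 and HLA-E in C4-2B MDVR.

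Transporter and loading genes were higher in H660 as well. TAP1 had 27.1 and 31.2 FPKM with the siRNAs and 30.2 FPKM with control siRNA in H660, against 13.1, 11.9 and 9.08 FPKM in C4-2B MDVR (limma log2 difference 1.31 ± 0.14, adjusted p = 0.000356). TAP2 had 6.63, 6.41 and 7.20 FPKM in H660, against 2.05, 3.25 and 2.90 FPKM in C4-2B MDVR (1.07 ± 0.15, adjusted p = 0.00106). Both subunits were higher in each H660 library than in any C4-2B MDVR library, but TAP2 lost its call where the C4-2B MDVR siRNA 1 library was left out (0.93) or values were quantile-normalized (0.99), since the difference was then under 1 on the log2(FPKM + 1) scale. With pseudocount 0.1 in place of 1 its difference was 1.30, and the limit is harder to reach at low levels with the larger pseudocount. The transporter needs both subunits. In FPKM, TAP1 exceeded TAP2 in all 6 libraries, by 4.09, 4.86 and 4.19 times in H660 and by 6.40, 3.66 and 3.13 times in C4-2B MDVR. TAPBP had 114 and 113 FPKM with the siRNAs and 123 FPKM with control siRNA in H660, against 29.4, 30.9 and 26.6 FPKM in C4-2B MDVR, without overlap (1.97 ± 0.11, adjusted p = 3.04e-05).

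NLRC5, the class I transactivator, had the lowest FPKM of the 9 in C4-2B MDVR. It stood at 3.44 and 2.99 FPKM with the siRNAs and 3.45 FPKM with control siRNA in H660, against 0.762, 0.532 and 0.498 FPKM in C4-2B MDVR, where these values rest on 190, 107 and 128 fragments. Again the lines did not overlap, with a control ratio of 6.92 (5.75 to 8.38) and a limma difference of 1.43 ± 0.13, given without p because the gene entered the test through H660 alone. The limma value is on the log2(FPKM + 1) scale, which understates the fold of a gene this low.

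The order of the levels was HLA-C, HLA-B, B2M, TAPBP, HLA-E, TAP1, TAP2, HLA-F and NLRC5 in H660. HLA-B and B2M were neighbours whose ranges overlapped, as were HLA-F and NLRC5. In C4-2B MDVR the order was HLA-C, HLA-E, TAPBP, B2M, HLA-B, TAP1, HLA-F, TAP2 and NLRC5, and the ranges of TAPBP, B2M and HLA-B overlapped in turn, as did those of HLA-F and TAP2. HLA-E thus stood above B2M in every C4-2B MDVR library and far under it in every H660 library.

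Other genes of the pathway were read from lists. The interferon-inducible proteasome subunits and activator were called higher in H660 in 5 of 5 genes, where 20.1% of all tested genes were. PSMB8 and PSMB9, like IRF1 in the regulator list, averaged under 1 FPKM in C4-2B MDVR and entered the test through H660 alone, where they are high, so their differences are given as a description and without p, and the counts that include them support nothing further. PSMB8, a catalytic subunit of the immunoproteasome, had 36.9 and 42.4 FPKM with the siRNAs and 37.1 FPKM with control siRNA in H660, against 0.265, 0.329 and 0.113 FPKM in C4-2B MDVR (limma log2 difference 5.01 ± 0.11). PSMB9, its partner subunit, whose gene adjoins TAP1, had 26.2, 31.4 and 27.5 FPKM in H660, against 1.25, 1.26 and 0.141 FPKM in C4-2B MDVR (4.03 ± 0.21). Neither gene overlapped between the lines, and both were under 1 FPKM in the C4-2B MDVR control. PSMB10, the third inducible catalytic subunit, differed by 2.15 ± 0.14 (adjusted p = 4.94e-05) and PSME2, an activator subunit, by 1.25 ± 0.19 (adjusted p = 0.00161). Of the 3 constitutive catalytic subunits that these replace, 0 were called higher and PSMB5 was called lower in H660 (-1.04 ± 0.12, adjusted p = 0.000484), where 17.9% of all tested genes were called lower.

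Among 4 general chaperones and editors of loading, CANX (calnexin, 1.21 ± 0.14, adjusted p = 0.000553) and TAPBPL (a peptide editor related to tapasin, 1.02 ± 0.21, adjusted p = 0.00555) were called higher in H660, and CALR and PDIA3 were not called. Of all tested genes 20.1% were called higher, and a list this short says little about the pathway. ERAP1, a peptide-trimming enzyme of the endoplasmic reticulum, stood at 2.95 FPKM on average in H660, against 1.25 FPKM in C4-2B MDVR, a ratio of 2.37. It was not called, since its difference of 0.82 ± 0.13 (adjusted p = 0.00185) was under 1 on the log2(FPKM + 1) scale, where the pseudocount of 1 shrinks the fold of a low gene. Of 14 regulators of class I transcription, 2 were called higher and 0 lower, where 20.1% of all tested genes were called higher. IRF1, an interferon response factor, had 10.4, 11.0 and 9.55 FPKM in H660, against 0.669, 1.89 and 0.223 FPKM in C4-2B MDVR (2.65 ± 0.25), and IRF2 differed by 1.28 ± 0.12 (adjusted p = 0.000203). Of 6 tested interferon receptors and kinases, JAK1 was called higher (2.51 ± 0.10, adjusted p = 9.13e-06) and JAK2 lower (-1.20 ± 0.15, no p given, since it entered the test through C4-2B MDVR alone). Calls in either direction made 38.0% of all tested genes, so these calls describe single genes and not the list. HFE, a class I-like heavy chain of iron metabolism, was the 1 gene called among 3 tested class I-like ones, where 17.9% of all tested genes were called lower. It is listed at 0 in all H660 libraries, against 4.12, 1.11 and 2.41 FPKM in C4-2B MDVR. HFE thus entered the test through C4-2B MDVR alone, where it is higher, so its call is a description and supports nothing further.

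**Figure D3:**
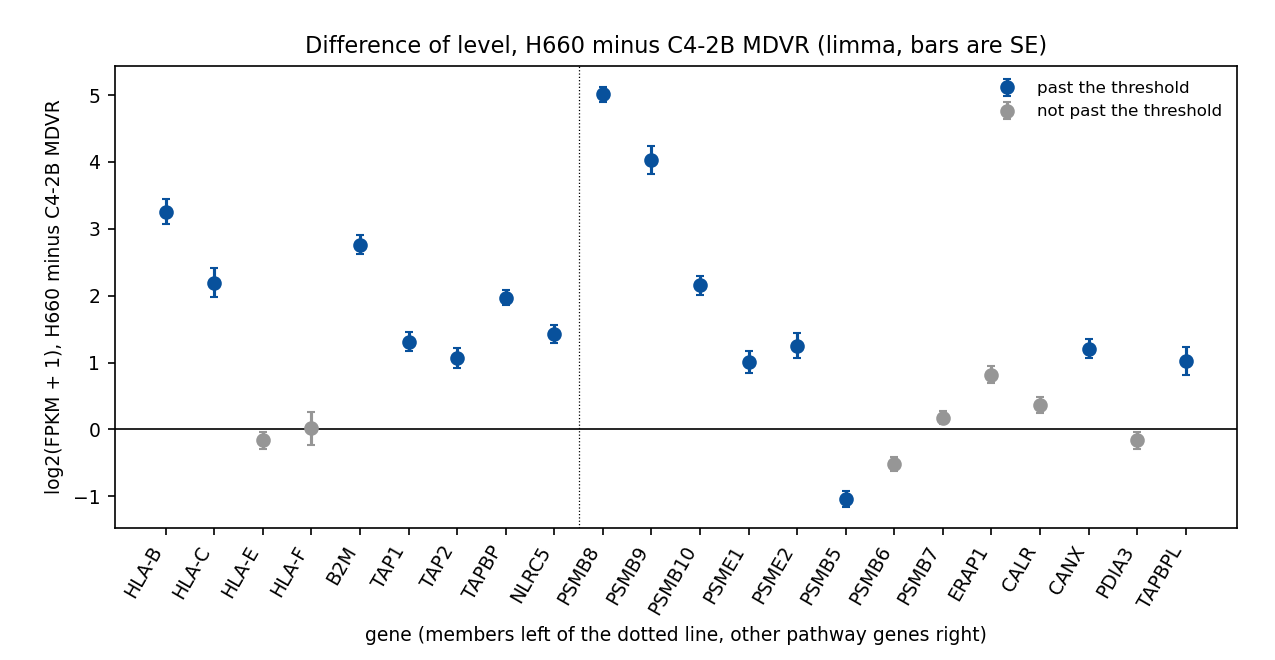
Difference of log2(FPKM + 1), H660 minus C4-2B MDVR, from limma with SE bars, for the 9 genes (left of the dotted line) and other genes of the pathway; blue passed the threshold and grey did not. PSMB8 and PSMB9 lie above every one of the 9, and HLA-E and HLA-F lie near 0.

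Several measures moved with the line difference. The pseudogene HLA-H, related in sequence to the heavy chains, was also higher in H660, at 3.34, 4.60 and 3.50 FPKM, against 0.362, 0.112 and 0.264 FPKM in C4-2B MDVR. Its level was small beside HLA-C and HLA-B, and the part of reads shared among these genes in the result was not tested. Of 5 leukocyte markers, 4 were under 1 FPKM in every library and CD3E was listed at 0 in all, while their sum was 1.89 to 2.46 FPKM in H660 and 0.487 to 0.832 FPKM in C4-2B MDVR. CD14 was the 1 marker above 1 FPKM, in H660. Mitochondrial genes gave 8.58% to 9.64% of fragments in H660 and 3.38% to 7.44% in C4-2B MDVR. With them left out the median of all tested genes moved to 0.26, and the 7 members were still called.

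The knockdown comparison asks whether class I genes change when PLXND1 is reduced. In C4-2B MDVR no member passed the test. The values with the 2 siRNAs were nevertheless above the lone control for HLA-B, HLA-C, HLA-E, B2M, TAP1, TAPBP and NLRC5, 7 of 9 members, which held for 32.0% of tested genes, and 0 members were below it with both, against 25.8%. By limma, 0 of 15638 genes were called in this line (0.0%), with 921 at an unadjusted p under 0.05, and voom on recovered fragments also called 0, with 991. The median log2 difference was 0.30 over the 9 members and 0.02 over all tested genes.

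HLA-B showed the widest gap. Its 32.7 FPKM with siRNA 1 and 21.8 FPKM with siRNA 2, against 15.6 FPKM with control siRNA, gave ratios of 2.10 (1.94 to 2.26) and 1.39 (1.28 to 1.52), and a limma difference of 0.74 ± 0.28 (log2, adjusted p = 0.851). Both siRNA libraries were above the control, and they differed from each other by more than counting error, siRNA 2 standing at 0.665 of siRNA 1. The limma difference was 0.45 without siRNA 1 and 1.02 without siRNA 2. The intervals reflect fragment counts alone, and the spread between siRNAs is what the limma test uses.

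B2M had ratios to control of 1.57 (1.5 to 1.65) and 1.41 (1.34 to 1.48) with siRNA 1 and siRNA 2. Its limma difference was 0.55 ± 0.16 (adjusted p = 0.801). TAP1 stood at 1.45 (1.33 to 1.58) and 1.31 (1.19 to 1.44) times the control (limma 0.42 ± 0.17, adjusted p = 0.865). For both genes the 2 siRNAs lay close together and above the control.

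HLA-C had ratios of 1.78 (1.72 to 1.84) and 1.12 (1.08 to 1.16), so that siRNA 1 gave most of its limma difference of 0.49 ± 0.34 (adjusted p = 0.932). That difference was 0.16 without the siRNA 1 library and 0.82 without the siRNA 2 library. HLA-E had ratios of 1.35 (1.27 to 1.43) and 1.13 (1.06 to 1.21), for a limma difference of 0.30 ± 0.19 (adjusted p = 0.917), which was 0.18 without siRNA 1 and 0.42 without siRNA 2. In both heavy chains the siRNA 1 library was the higher.

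TAPBP had ratios of 1.11 and 1.16 (limma 0.17 ± 0.14, adjusted p = 0.960). NLRC5 had 1.53 (1.22 to 1.93) and 1.07 (0.818 to 1.39), the second within counting error of the control (limma 0.13 ± 0.18, adjusted p = 1; 0.032 without siRNA 1 and 0.23 without siRNA 2). HLA-F and TAP2 lay on different sides of the control with the 2 siRNAs. For HLA-F the ratios were 1.75 (1.5 to 2.04) and 0.752 (0.614 to 0.918), and for TAP2 0.708 (0.603 to 0.830) and 1.12 (0.965 to 1.30). Their limma differences were 0.17 ± 0.42 and -0.11 ± 0.24 (adjusted p = 1 for each), and leaving out the siRNA 1 library turned both signs, to -0.30 and 0.12.

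**Figure D4:**
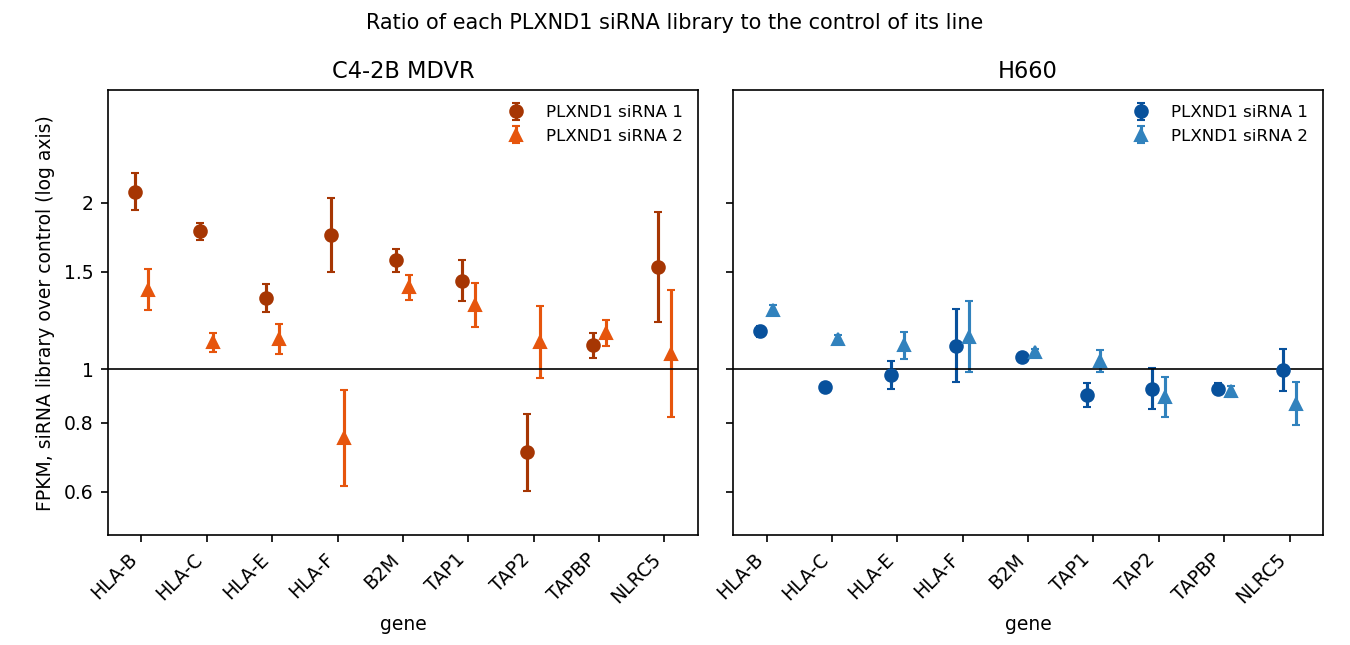
Ratio of FPKM in each PLXND1 siRNA library to the control of the same line, on a log axis, with exact binomial intervals at 95% that cover counting error only; C4-2B MDVR is on the left and H660 on the right. In C4-2B MDVR both siRNAs lie above 1 for 7 genes and on different sides for HLA-F and TAP2, and in H660 the ratios lie nearer to 1.

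The size of these differences depended on the scaling of the C4-2B MDVR libraries. Mitochondrial genes gave 7.44% and 6.83% of fragments with siRNA 1 and siRNA 2, against 3.38% in the control, and the library total implied by the FPKM was 0.926 and 0.920 of the recovered total with the siRNAs, against 1.01 in the control. Their part in the result was not tested beyond the rescalings. The member median was 0.20 with mitochondrial genes left out, 0.24 by voom, 0.20 after quantile normalization and 0.03 with short RNAs left out. The matching medians of all tested genes were -0.03, -0.09, 0.00 and -0.16. With short RNAs left out, HLA-B stood at 0.48, B2M at 0.29, HLA-C at 0.22 and TAP1 at 0.17, while TAPBP (-0.088) and HLA-F (-0.031) changed sign. HLA-B, HLA-C, HLA-E, B2M, TAP1 and NLRC5 stayed above 0 under all of these scalings, and none passed the test in any.

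**Figure D5:**
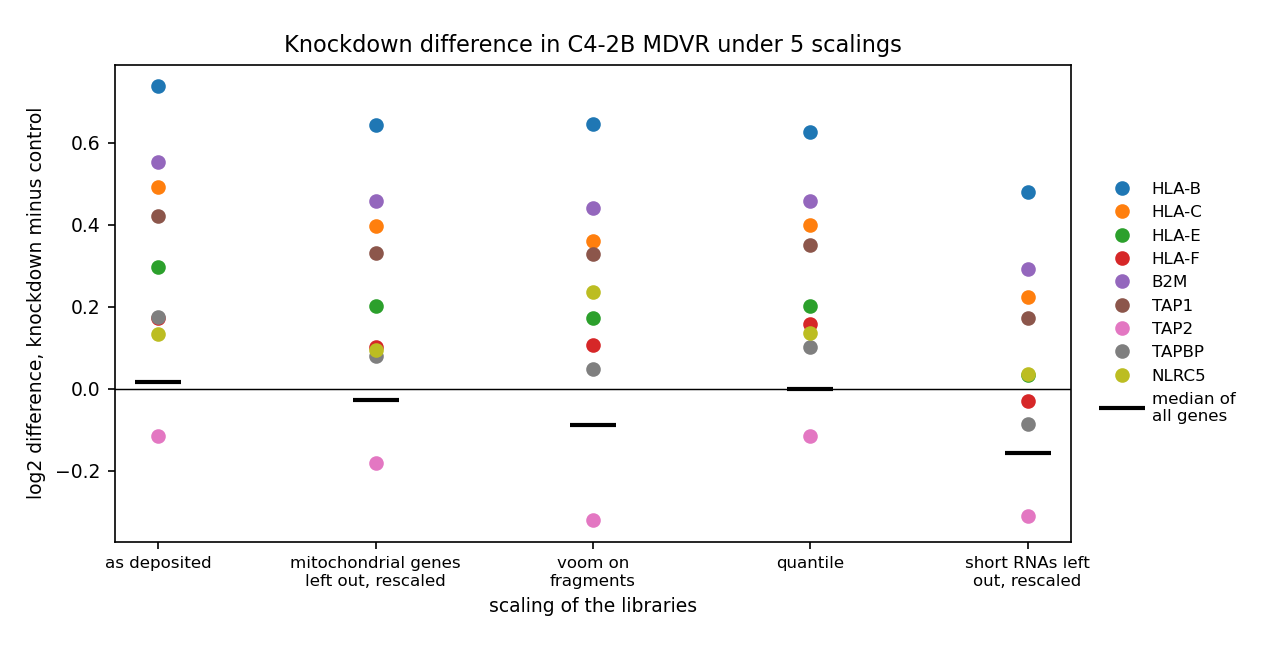
Log2 difference of each of the 9 genes in C4-2B MDVR, PLXND1 siRNA minus control siRNA, under 5 scalings of the libraries; black bars are the median of all tested genes. HLA-B stays on top, at 0.74 as deposited and 0.48 with short RNAs left out, and the black bar moves between 0.02 and -0.16.

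Among the other pathway genes in C4-2B MDVR, 0 were called. Of the 5 immunoproteasome and activator genes, 4 had differences above 0, with a median of 0.60, and 9 of the 14 regulators did, with a median of 0.19, where 8279 of 15638 tested genes (52.9%) had differences above 0. PSMB9 stood at 8.81 (4.41 to 20.0) and 8.94 (4.42 to 20.4) times the control, on 77, 63 and 9 fragments with siRNA 1, siRNA 2 and control siRNA (limma 0.98 ± 0.18, adjusted p = 0.568). IRF1 stood at 3.0 (2.04 to 4.52) and 8.47 (5.95 to 12.4) times the control (0.84 ± 0.36, adjusted p = 0.870). Both genes were above the control with each siRNA and missed the threshold. NFKB1, an NF-κB subunit, was below the control with each siRNA, at 0.518 (0.443 to 0.604) and 0.925 (0.805 to 1.06) times, the second within counting error (-0.39 ± 0.29, adjusted p = 0.943). In the leukocyte list, the sum was 0.832 and 0.519 FPKM with the siRNAs, against 0.487 FPKM in the control.

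In H660, where PLXND1 stayed at 0.830 of control, the class I genes lay close to their control. No member passed the test, and limma called 0 of 15638 genes (0.0%), with 647 at an unadjusted p under 0.05, while voom called 0, with 557. Above the control with both siRNAs were HLA-B, HLA-F and B2M, 3 of 9 members against 32.1% of tested genes. Below it with both were TAP2, TAPBP and NLRC5, 3 of 9 against 38.3%. The member median was 0.04 and that of all tested genes -0.01.

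HLA-B was again the member with the widest gap, at 1.17 (1.15 to 1.20) and 1.28 (1.25 to 1.31) times the control with siRNA 1 and siRNA 2 (limma 0.29 ± 0.28, adjusted p = 1). B2M stood at 1.05 (1.03 to 1.07) and 1.07 (1.06 to 1.09) times (0.09 ± 0.16), and TAPBP at 0.922 (0.901 to 0.943) and 0.912 (0.892 to 0.933) times (-0.12 ± 0.14), each with an adjusted p of 1 by limma. These ratios are narrow because the genes are deeply covered, and the fit across libraries, which uses the spread between siRNAs, called none of them. HLA-C went to 0.929 (0.915 to 0.943) with siRNA 1 and 1.14 (1.12 to 1.15) with siRNA 2, on different sides of the control (0.04 ± 0.34, adjusted p = 1). The remaining members had limma differences from -0.12 to 0.13.

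Over both lines together, HLA-B differed by 0.51 ± 0.20 with PLXND1 siRNA and B2M by 0.32 ± 0.15 (limma, adjusted p = 0.985 for each). Both genes were above the control with both siRNAs in each line, which held for 32.0% of tested genes in C4-2B MDVR and 32.1% in H660. The share for both lines at once was not counted, and the siRNA libraries of a line share 1 control, so their directions are not independent. The HLA-B and B2M differences depended on which control was in the fit. Without the C4-2B MDVR control, which leaves H660 alone to inform the effect, they were 0.29 for HLA-B and 0.086 for B2M. Without the H660 control they were 0.74 and 0.55. Limma called 0 of 15638 genes (0.0%), with 654 at an unadjusted p under 0.05, and voom called 0, with 754. The knockdown effect in C4-2B MDVR minus that in H660 was 0.47 ± 0.22 for B2M and 0.47 ± 0.24 for TAP1. It was 0.45 ± 0.48 for HLA-C and 0.45 ± 0.40 for HLA-B. Limma gave an adjusted p of 0.985 for each, so a difference between the lines was not shown for any of them. The HLA-B value was 0.16 without C4-2B MDVR siRNA 1 and 0.73 without C4-2B MDVR siRNA 2. In that comparison limma called 0 genes (0.0%), with 701 at an unadjusted p under 0.05, and voom 0, with 754.

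Likeness to the average profile of the 9 genes was measured over the 6 libraries as the root mean square distance of centred log2(FPKM + 1). The nearest genes outside the 9 were CCDC28A (0.0480), SEPT9 (0.0525), ACADVL (0.0604), SPINT2 (0.0690) and OCIAD2 (0.0735). The members themselves lay farther from their own average, between 0.113 for NLRC5 and 0.880 for HLA-B, with TAP1 at 0.131 and TAPBP at 0.248. HLA-F (0.789) and HLA-E (0.851), which were not called between the lines, and HLA-B and B2M (0.619), which differed most, were the farthest. The 6 points share 2 lines and the distance is mainly one of line levels.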

How the data were processed

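Messenger RNA libraries of 150-base paired reads were made from total RNA, per the labels' protocols, with 1 control siRNA and 2 PLXND1 siRNA libraries in each of 2 lines. The deposited values are FPKM, computed by the authors with HISAT and Cufflinks on a build named hg18, per the submitters' processing notes, with no versions given. All 58735 gene identifiers are in GENCODE 29, which gave names, exon lengths and coordinates (GRCh38). FPKM times exon length came in whole steps, within 0.05 fragments, in 100.0% of the 11224 to 13428 genes per library with at most 100 fragments, and fragment numbers were recovered from these steps. The implied library total was 0.92 to 1.08 times the recovered total, a factor whose source is not given in the sources used here. Intervals at 95% (exact Poisson, exact binomial) come from these fragments and cover counting error only.

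Limma 3.58.1 (R 4.3.3) was run on log2(FPKM + 1) values (trend, two-sided, Benjamini-Hochberg over 15638 genes, threshold 0.05). For knockdown in each line, and for its difference between the lines, all 4 groups were fitted together (2 residual degrees of freedom), which takes a single control to be as variable as a siRNA pair. An additive fit (3 residual degrees of freedom) gave the effect over both lines and the line difference, which also needed 2-fold. The fits were tested on simulated data. Alternatives were pseudocount 0.1, no filter, quantile normalization, short RNAs or mitochondrial genes left out, voom on recovered fragments, a siRNA number block, single-line fits and each library left out. The 9 genes and the lists were chosen with earlier results of these data known. Every one of the 9 is named. From each list up to 4 genes are named, those past the threshold by size, then those with the largest difference in C4-2B MDVR; a gene that this rule takes is not reported here. Likeness took the 5 nearest protein-coding genes. Motifs were searched on both strands of the 250 bases before RefSeq gene starts, and identity is over aligned columns (Biopython 1.88).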

Additional observations from a re-analysis of the deposited data

Results flagged for a closer look

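TAPBP and NLRC5 stood above the control with both siRNAs in C4-2B MDVR and below it with both in H660. The knockdown effect in C4-2B MDVR minus that in H660 was 0.30 for TAPBP and 0.21 for NLRC5 on the log2 scale, and limma's test of that difference gave an adjusted p of 0.985 for each. Among all tested genes, 11.9% (1854 of 15638) showed this opposite pattern. TAPBP changed sign in C4-2B MDVR when short RNAs were left out, and the NLRC5 ratios of 1.07 with siRNA 2 in C4-2B MDVR and 0.997 with siRNA 1 in H660 were within counting error of 1.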

How the results depend on the processing

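Of the alternative values for single members, 375 kept their direction and their side of the threshold, 15 changed sign and 2 lost a call; of the alternative counts, 115 stayed within 1.5 times and 7 did not. Members called in the line comparison were 7 in every alternative except quantile normalization and the fit without C4-2B MDVR siRNA 1, where TAP2 (0.99 and 0.93) left 6; in the knockdown comparisons they were 0 throughout. With no filter on low values, limma called 851 genes for knockdown in C4-2B MDVR, 876 in H660 and 1372 for the difference between the lines, and the cause was not tested. With short RNAs left out 2 genes were called in C4-2B MDVR. In H660 1 gene was called with pseudocount 0.1, 1 after quantile normalization and 1 with a replicate block for the siRNA number. Under that block the line comparison called 5993 genes, 7 members among them. Numbers 1 and 2 are siRNA numbers, and the differences between them did not go together in the 2 lines (correlation over genes -0.0043).

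Signs changed only for differences that were not called. For knockdown in C4-2B MDVR these were HLA-F (-0.031 with short RNAs left out, -0.30 to 0.64 when a library was left out), TAPBP (-0.088 with short RNAs left out) and TAP2 (-0.35 to 0.12 when a library was left out). For knockdown in H660 they were HLA-C (-0.057 after quantile normalization, -0.0034 with short RNAs left out, -0.11 to 0.18 when a library was left out), HLA-E (-0.033 to 0.14 when a library was left out), B2M (-0.039 after quantile normalization) and TAP1 (-0.15 to 0.045 when a library was left out). Between the lines they were HLA-E (0.088 after quantile normalization, 0.12 with mitochondrial genes left out, 0.010 by voom) and HLA-F (-0.13 after quantile normalization, -0.25 to 0.29 when a library was left out). Left-out fits leave an arm with 1 library, which is assumed to vary like the others. The TAP2 range over left-out libraries between the lines was 0.93 to 1.20. With 1 control per line, an error in that library moves both ratios alike, and NLRC5, HLA-F and PSMB9 in C4-2B MDVR are limited by their fragment numbers.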
